A study of Rattus norvegicus with 16 samples.

Results

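MHC class II molecules are surface receptors that show fragments of swallowed protein to helper T cells. Each molecule pairs an alpha and a beta chain. The invariant chain, encoded by Cd74, holds the new pair and guards its groove until it reaches the compartment where peptides are loaded. In the rat the chains form the RT1-B and RT1-D molecules, the DM pair helps to exchange the guard for a peptide, and the transactivator Ciita switches the whole set on. Macrophages, dendritic cells and B cells are the usual carriers, whereas most cells of cartilage and disc are not.

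The 8 genes examined were chosen by name: Cd74 (invariant chain), RT1-Ba and RT1-Bb (alpha and beta chains of RT1-B), RT1-Da and RT1-Db1 (alpha and beta chains of RT1-D), RT1-DMa and RT1-DMb (the DM pair) and Ciita. Of these, 6 were listed in at least 1 group of libraries and 5 in all 4 groups, out of 14930 genes listed in any library. RT1-DMa and RT1-DMb were listed in no group and Ciita was not listed for the punctured discs at 8 weeks. A gene that is not listed has no value, which is not the same as a value of 0.

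Rats were male Sprague-Dawley animals, 8 weeks old at surgery, and a 27G needle was passed once into the L4-5 and the L5-6 disc. Punctured discs (LDP) and the uninjured L2-3 and L3-4 discs of the same animal (CON) were collected 2 weeks later from rats 1 to 4 or 8 weeks later from rats 5 to 8. The 2 discs of a condition were pooled in each rat and gave 1 library of 3′ single-cell RNA, so that there were 16 libraries, 4 in each of the 4 groups (CON and LDP at both times). Puncture and spinal level go together in every rat and cannot be told apart, no unoperated rats were included, and all animals were of 1 sex.

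The libraries held 149272 cells, between 2221 and 15918 each, with 17759809 to 85025591 unique molecular identifiers (UMIs, single captured transcripts). The authors named 127077 disc, 8028 lymphoid, 7057 endothelial and 1731 myeloid cells and left 5379 without a name. They clustered each of the 4 groups apart, and CON at 8 weeks had no endothelial class. In medians over libraries every disc and endothelial marker checked was highest in its own class, as were the myeloid markers Lyz2, Cd68, Csf1r, Mrc1 and Cd14 and the lymphoid markers Cd79b, Blnk and Myb, whereas Ptprc was highest in myeloid cells. Any pair of libraries shared between 0 and 75 cell barcodes. Shares of cells with a UMI were taken after thinning each cell to 1000 UMIs, which left out 2064 cells below that depth, and full-depth shares are named as such. Intervals for shares are exact 95% Clopper-Pearson intervals, and they and the limits for a count of 0 cover counting error only. CPM stands for counts per 1000000 counts of a cell, averaged over the cells of a library or class. Because the reads come from the 3′ end and the genes differ in how they are captured, levels are compared between cells and libraries and not ranked between genes.

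The chain genes lie together in the RT1 complex on chromosome 20. Promoter sequence is shown for the 4 chains of this complex whose cells are compared with those of Cd74 in the results. Class II promoters are known for a conserved X box followed by a Y box, and the Y box carries the letters ATTGG. Of 8 genes, 6 were in the RefSeq promoter table (build GRCr8, 250 bases before to 50 after each start), RT1-DMb and Ciita were not. The windows run 5′ to 3′ on the gene's strand. Capitals mark ATTGG and, where present ahead of it, AACNNNTG, a pattern of letters for the end of the X box. No other form of the X box was searched, so a window without this pattern is not shown to lack an X box.

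RT1-Ba, chr20:4576954-4577033, + strand: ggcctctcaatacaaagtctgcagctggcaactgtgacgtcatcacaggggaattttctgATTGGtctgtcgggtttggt
RT1-Bb, chr20:4604160-4604239, - strand: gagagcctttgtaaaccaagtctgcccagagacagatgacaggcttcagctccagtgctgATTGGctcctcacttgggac
RT1-Da, chr20:4515306-4515385, + strand: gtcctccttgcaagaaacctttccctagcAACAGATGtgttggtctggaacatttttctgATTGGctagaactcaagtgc
RT1-Db1, chr20:4560223-4560302, - strand: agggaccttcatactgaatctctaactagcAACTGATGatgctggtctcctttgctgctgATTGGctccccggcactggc

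ATTGG began 43 bases before the start in RT1-Ba, 61 in RT1-Bb, 49 in RT1-Da and 80 in RT1-Db1. AACNNNTG stood ahead of it on the same strand in RT1-Da, with 23 bases between, and in RT1-Db1, with 22. Searched on both strands, ATTGG was present in 37.5% of all 33469 promoters of the table and AACNNNTG in 36.5%, and the ordered pair with 10 to 35 bases between was present in 1.20%. On the gene's own strand, on which the windows are read, the shares were 22.3, 21.0 and 0.681%. Of 4 other class II genes searched, RT1-DOb and RT1-Db2 held the pair and RT1-DOa and RT1-Ha did not. The promoter of RT1-DMa held ATTGG without the pair, and that of Cd74 held ATTGG on the other strand alone, without the pair. A match of letters is a description and no measure of binding, and the counts themselves were made by the authors on another build, rn6.

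Of the 4 named classes, myeloid cells carried the highest levels of all 5 genes listed everywhere. In the 15 libraries with at least 20 myeloid cells, Cd74 averaged 5817 ± 2139.9 CPM (SD, n = 15), from 2229 to 9285. RT1-Da averaged 3021 ± 1094 CPM (982 to 4754) and RT1-Db1 3379 ± 1398 (913 to 5529.6). RT1-Ba averaged 1246 ± 579.9 CPM (518 to 2299). RT1-Bb had a median of 85.3 CPM and ran from 10.4 to 1738, and its mean of 227 ± 433 was set by 1 rat described further on. The authors drew the classes from the same cells, so differences between classes are described and not tested.

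Of the 4 named classes, lymphoid cells came second for Cd74 and far lower for the chains. Unnamed cells could stand higher: in LDP rat 7 Cd74 was at 1563 CPM in 411 unnamed cells and 1032 CPM in 679 lymphoid cells. In the 11 libraries with at least 20 of them, Cd74 averaged 993 ± 470.3 CPM (SD, n = 11), from 32.3 to 1874. RT1-Db1 averaged 228 ± 180.2 CPM, RT1-Da 86.9 ± 112, RT1-Ba 47.2 ± 69.9 and RT1-Bb 2.32 ± 3.26. The lowest Cd74 level belonged to the uninjured discs of rat 1 at 2 weeks, whose 91 lymphoid cells held 11 UMIs of Cd74 and 39 of RT1-Db1. Its cycling markers summed to 5090 CPM, against 130 to 880.5 CPM in the lymphoid cells of the other 10 libraries, and the part of this in the Cd74 level was not tested.

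Endothelial cells (8.21 ± 8.53 CPM of Cd74, n = 12) and disc cells (6.01 ± 6.51 CPM, n = 16) did not differ in Cd74 beyond their spread over libraries. At full depth Cd74 had a UMI in 0.181 to 5.24% of disc cells and in 0.177 to 4.90% of endothelial cells of a library. The shares were highest together and otherwise varied. In the punctured discs of rat 3 they were 5.24% of disc and 4.90% of endothelial cells, in those of rat 4 3.07 and 2.89%, and in the uninjured discs of rat 4 0.445 and 0.177%. Median depth was 5557 and 2111 UMIs per cell for disc and endothelial cells in the first, 7924 and 2705 in the second and 5735 and 2012 in the last. Cd79b, a B cell gene, had a UMI in 5.23% of disc cells in the first library, 3.01% in the second and 0.252% in the last. The match was looser elsewhere. Cd74 had a UMI in 0.407% of disc and 1.45% of endothelial cells in the punctured discs of rat 8, in 2.14 and 3.43% in those of rat 7 and in 0.322 and 0.778% in those of rat 1. Cd79b had a UMI in 0.171% of disc cells of the uninjured discs of rat 3, where Cd74 had one in 1.68%. Free RNA in the droplets was not measured, and its part in these low shares was not tested. The plot of levels by class shows the steps from myeloid to lymphoid to the other 2 classes.

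**Figure D1:**
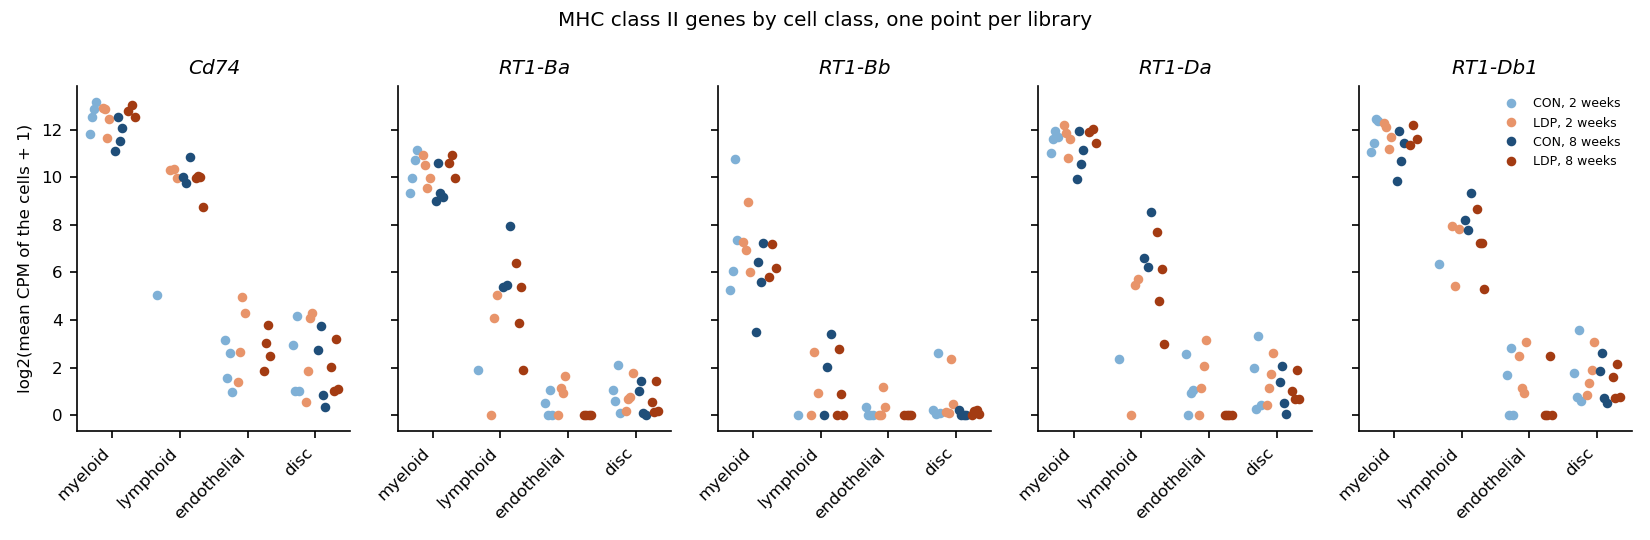
Level of 5 MHC class II genes by cell class, as log2(mean CPM of the cells + 1), 1 point per library with at least 20 cells of the class, coloured by group. The 15 myeloid libraries lie above all other classes for Cd74, lymphoid libraries follow, and endothelial and disc libraries lie together at the bottom.

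Ciita, the switch of the set, was near the limit of detection. It had a UMI in 160 cells in all. CON at 2 weeks held 67 UMIs, 64 of them in disc cells and 3 in myeloid cells. LDP at 2 weeks held 66, with 58 in disc and 6 in myeloid cells, and CON at 8 weeks 32, with 17 in disc and 12 in myeloid cells. Per cell it averaged 3.39 ± 4.98 CPM in myeloid cells (12 libraries) and 0.220 ± 0.114 CPM in disc cells. In no disc library did it exceed 0.265% of cells at full depth. It could not be compared between CON and LDP at 8 weeks. Fits took only genes listed in all their libraries, those of LDP at 8 weeks among them, so Ciita entered none.

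The UMIs of a group were divided among the classes differently in the punctured discs at 8 weeks, a description with no test. In CON at 2 weeks, myeloid cells held 85.3% of the Cd74 UMIs, 91.0% of RT1-Ba, 90.8% of RT1-Da and 89.6% of RT1-Db1. In LDP at 2 weeks these were 64.0, 90.8, 91.6 and 87.4%, and lymphoid cells held 28.3% of Cd74. That share came from rats 3 and 4, at 39.4 and 26.2%, against 0 and 1.25% in rats 1 and 2. In CON at 8 weeks myeloid cells held 60.6% of Cd74 and 84.3% of RT1-Ba. In LDP at 8 weeks the cells without a name held 35.6% of Cd74, 56.9% of RT1-Ba, 49.7% of RT1-Da and 48.7% of RT1-Db1, against 3.98, 3.87, 3.99 and 3.07% in CON at 8 weeks.

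This was seen in each punctured library of that time. The unnamed cells of rats 5 to 8 held 47.5, 50.8, 64.6 and 60.3% of the RT1-Ba UMIs in the library although they made up 1.61, 28.3, 4.06 and 0.354% of its cells. The unnamed cells of LDP at 8 weeks that were class II positive (a UMI of Cd74 and of at least 1 chain at 1000 UMIs) numbered 23 of 111, 7 of 626, 42 of 407 and 8 of 32 in rats 5 to 8. In CON at 8 weeks they numbered 8 of 766, 9 of 581, 0 of 88 and 0 of 322, and 3 cells, the limit that a count of 0 allows, would be shares of 3.41 and 0.932%. The uninjured discs of rat 1 at 2 weeks also held class II positive cells among the unnamed, 28 of 645. Cd79b had a UMI in 50% of these 28 cells and in 15.2% of the other unnamed cells there, and Lyz2 in 0 and 3.24%. They are thus not shown to be the same kind of cell as those of LDP at 8 weeks.

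The punctured discs of rats 5 and 7 had at least 10 positive unnamed cells, which those of rats 6 and 8 had not, and there the positive cells were set beside the negative ones. Clec9a, a gene of cross-presenting dendritic cells, had a UMI in 8.70 and 31.0% of the positive unnamed cells and in 0% of the others. Of the other genes of the dendritic list, Itgax was found in 4.35 and 9.52% of the positive cells, Ccr7 in 0 and 7.14%, and Flt3 and Zbtb46 in 0%. S100a8, a neutrophil gene, had a UMI in 4.35 and 0% of the positive cells and in 26.1 and 69.9% of the others. Cd79b had a UMI in 26.1 and 16.7% of the positive cells and in 0 and 0.274% of the others. Kdr, of the endothelial list, had a UMI in 4.35 and 40.5% of the positive cells and in 0 and 0.548% of the others. Cdh5, Plvap, Ifitm3, Flt1 and Emcn of that list were found in 0% of the positive cells. Il7r was found in 21.7 and 26.2% of the positive cells and in 2.27 and 3.01% of the others. The macrophage genes C1qa, C1qc, Mrc1 and Csf1r were found in 0% of the positive cells. The myeloid markers Lyz2, Cd14 and Cd68 are not among these genes, so the positive cells are not shown to lack myeloid transcripts. The unnamed class of these libraries thus mixes cells, and the myeloid class at 8 weeks does not hold all of the class II rich cells of the punctured discs. The positive cells were chosen by the member genes alone, and no test was made over cells.

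Class II positive cells numbered 1630 of 147208 (1.11%). Myeloid cells made up 46.4% of them, lymphoid cells 38.0%, unnamed cells 7.73%, disc cells 7.61% and endothelial cells 0.245%. Within a class, 44.1% of myeloid, 8.47% of lymphoid, 0.0983% of disc and 0.0591% of endothelial cells were positive. The order of the first 2 classes was not the same in each group or under each setting. At 2 weeks myeloid and lymphoid cells made up 63.2 and 0% of the positive cells in CON and 53.4 and 41.8% in LDP. At 8 weeks they made up 33.8 and 58.5% in CON and 37.3 and 37.0% in LDP. At 2000 UMIs myeloid cells made up 51.7% of the positive cells and lymphoid cells 34.6%. At all UMIs, where depth is unequal and the 2064 cells below 1000 UMIs are in, lymphoid cells made up 47.6% and myeloid cells 32.7%, and 15.8% of lymphoid cells were positive. Of the 124 positive disc cells 54 came from the uninjured discs of rat 3. Their median depth was 1392.5 UMIs against 4385.8 in the other disc cells of that library, and Lyz2 had a UMI in 37.0% of them against 0.54% of the others.

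**Figure D2:**
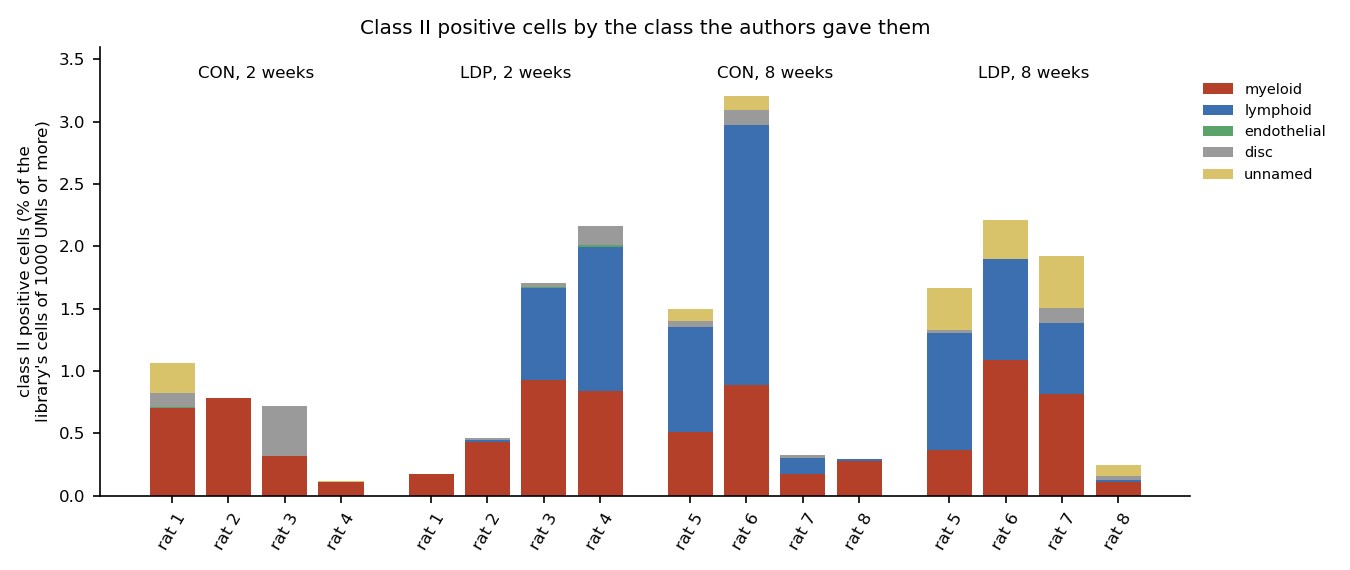
Class II positive cells as a percentage of the cells of each library with 1000 UMIs or more, stacked by cell class. CON rat 6 stands highest at 3.21%, and unnamed cells make up 14.3 to 36.4% of the bar in LDP rats 5 to 8 at 8 weeks and 22.8% in CON rat 1 at 2 weeks.

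Within myeloid cells the genes were found in the same cells. Of 1716 myeloid cells, 46.2% had a UMI of none of the 5 genes, 8.97% of 1, 5.42% of 2, 9.50% of 3, 19.9% of 4 and 9.97% of all 5. Of the 862 cells with Cd74, RT1-Da was found in 79.4%, RT1-Db1 in 79.6%, RT1-Ba in 63.3% and RT1-Bb in 23.1%. Rat 3 held 96 of the 171 cells with all 5: without it 5.91% of 1270 cells had all 5, and RT1-Bb was found in 12.4% of the cells with Cd74 and RT1-Da in 80.3%. Of cells without Cd74, RT1-Db1 was found in 4.22% and RT1-Bb in 0%. Looked at from the chains, 95.01% of cells with RT1-Db1, 96.6% with RT1-Da, 97.3% with RT1-Ba and 100% with RT1-Bb also had Cd74. The median over 15 libraries of the Spearman correlation across myeloid cells was 0.89 for Cd74 with RT1-Db1, 0.87 for Cd74 with RT1-Da and 0.87 for RT1-Da with RT1-Db1. It was 0.43 for RT1-Ba with RT1-Bb and 0.40 for Cd74 with RT1-Bb. Cells of 1 library share their depth and background, so these values are descriptions.

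In lymphoid cells with Cd74 a UMI of a chain was less frequent at this depth than in myeloid cells, a description with no test. Of 7304 lymphoid cells 2911 had Cd74 (39.9%), and of these 16.4% had RT1-Db1, 7.52% RT1-Da, 4.84% RT1-Ba and 0.515% RT1-Bb. A single member was found in 37.7% of lymphoid cells and 3 or more in few: 1.44% had 3, 0.821% had 4 and 0.0548% had 5. Looked at from the chains, 78.5% of lymphoid cells with RT1-Da and 54.8% with RT1-Db1 had Cd74, the commoner gene. The median Spearman correlation was 0.15 for Cd74 with RT1-Ba and 0.30 for RT1-Ba with RT1-Da over 8 libraries, and 0.18 for Cd74 with RT1-Db1 over 11.

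**Figure D3:**
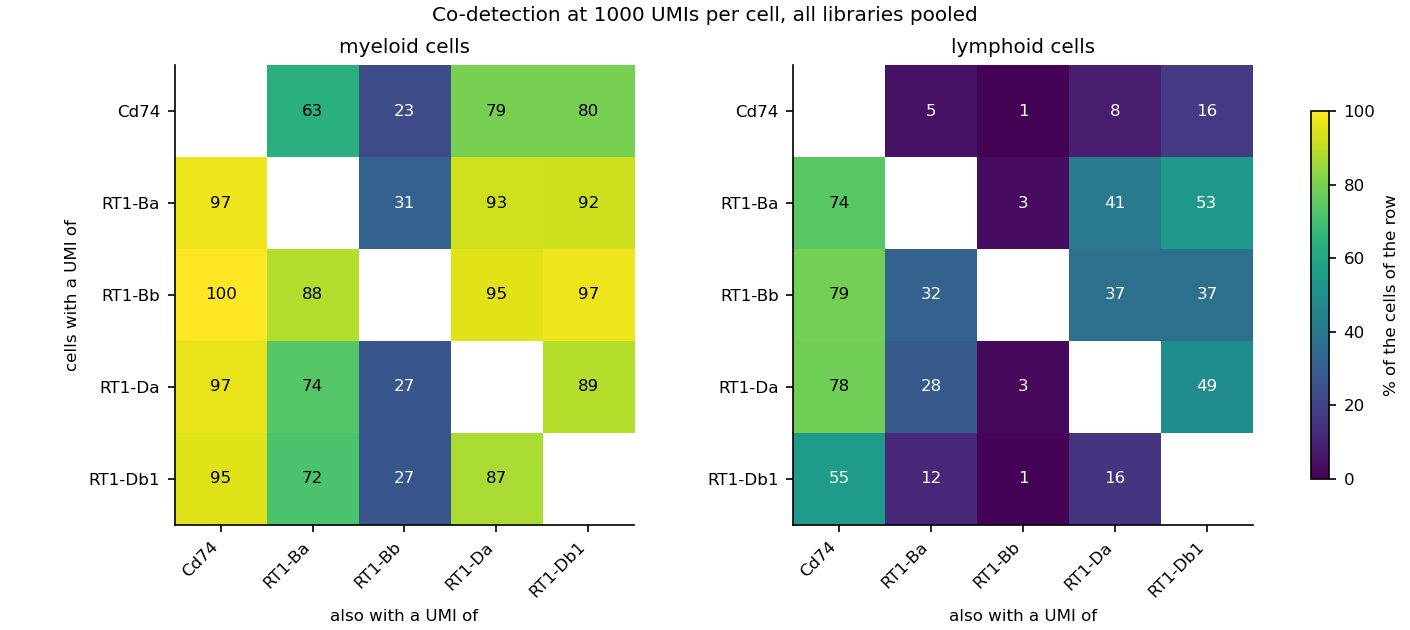
Percentage of the cells with a UMI of the gene on the vertical axis that also have a UMI of the gene on the horizontal axis, at 1000 UMIs per cell with libraries pooled, in myeloid and in lymphoid cells. In myeloid cells 79.4% of the cells with Cd74 also have RT1-Da and 79.6% RT1-Db1, in lymphoid cells 7.52 and 16.4%.

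The class II positive lymphoid cells differed from the negative ones in the B cell genes they carried. In the 7 libraries with at least 10 of each, Ms4a1, the surface protein CD20 of mature B cells, had a UMI in a median of 13.8% of positive and 2.71% of negative cells, and it was higher in 7 of 7 libraries. Fcer2 (CD23) was found in 5.56 and 0.508%, higher in 7 of 7. Rag1, a recombinase of B cell precursors, was found in 16.7% of positive and 36.5% of negative cells and was lower in 7 of 7. Dntt, Vpreb1 and Il7r, genes of the same early stages, were lower in 7 of 7 libraries as well. Mki67, a gene of dividing cells, was found in 3.65 and 14.1%, lower in 7 of 7. No p is given because positive and negative cells come from the same libraries and the genes were drawn from marker lists.

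Among myeloid cells (14 libraries) Itgax, an integrin of dendritic cells, had a UMI in a median of 5.44% of positive and 0.284% of negative cells and was higher in 11 of 14. Cd68, a lysosomal protein of macrophages, was found in 24.7 and 16.5%, higher in 10 of 14. Of the other myeloid and macrophage markers C1qb, C1qc, Mrc1 and Csf1r were higher in 9 and lower in 5, and C1qa and Cd14 higher in 8 and lower in 6. Ptprc, the common leukocyte antigen, was lower in 12 of 14. S100a8 was higher in the positive cells of 0 libraries and lower in 8. Lyz2 was higher in 7 and lower in 7. The myeloid class of 3 libraries held many neutrophil transcripts: the neutrophil marker list summed to 50679 CPM in CON rat 1 at 2 weeks and to 44161 and 56710 CPM in LDP rats 3 and 4, against 0 to 1344 CPM in the other 12.

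Injury was compared within the rat, by limma with the rat as a block on log2(mean CPM + 1), over all genes tested. In bulk values over all cells of a library, taken alone, fewer cells of a type and less RNA per cell cannot be told apart. At 2 weeks no direction was shared by the rats. Cd74 was at 127, 95.4, 62.5 and 18.9 CPM in CON rats 1 to 4 and at 28.8, 57.2, 340.0 and 235 CPM in LDP. It was lower after puncture in rats 1 and 2, higher in rats 3 and 4, and the groups overlapped. RT1-Db1 was at 59.3, 45.02, 44.5 and 10.4 CPM in CON and 19.3, 32.9, 68.8 and 91.4 CPM in LDP. RT1-Ba, RT1-Bb and RT1-Da divided the rats in the same way. The log2 difference of LDP against CON was 0.79 ± 0.84 for Cd74 (SE, 95% interval −1.09 to 2.67, adjusted p = 0.773), and it ran from 0.16 to 0.40 for the chains with adjusted p from 0.860 to 0.881. The median over the 5 genes was 0.36, against −0.06 over all 12199 genes. Without rat 4 all 5 differences were below 0, from −0.57 for RT1-Da to −0.090 for RT1-Bb. None of the 5 was called, and none had an unadjusted p under 0.05. The background was 0.0% of genes called at an adjusted p of 0.05, with 278 genes higher and 841 lower at an unadjusted p under 0.05 by limma. DESeq2 on recovered counts called 140 genes and edgeR 0, and neither called a member.

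At 8 weeks the chains leaned towards the punctured discs in 3 of 4 rats without passing the test. RT1-Ba was at 14.6, 36.7, 6.64 and 3.00 CPM in CON rats 5 to 8 and at 31.5, 54.1, 43.3 and 2.77 CPM in LDP. RT1-Da was at 28.9, 83.9, 14.3 and 11.2 CPM in CON and 64.1, 111, 90.05 and 9.05 CPM in LDP. RT1-Ba, RT1-Bb, RT1-Da and RT1-Db1 were each higher in the punctured discs of rats 5, 6 and 7 and lower in rat 8, and Cd74 was higher in rats 5, 7 and 8. The groups overlapped for all 5. The log2 difference was 1.01 ± 0.53 for RT1-Ba (SE, 95% interval −0.19 to 2.21, adjusted p = 0.588), 0.95 ± 0.69 for RT1-Da (adjusted p = 0.670), 0.78 ± 0.67 for RT1-Db1 (adjusted p = 0.714), 0.71 ± 0.84 for Cd74 (adjusted p = 0.794) and 0.37 ± 0.29 for RT1-Bb (adjusted p = 0.683). The median over the 5 was 0.78 against −0.10 over all genes, and 0 of 5 were called by limma against a background of 0.0082% (257 genes higher and 857 lower at an unadjusted p under 0.05, 2 genes called by edgeR and 209 by DESeq2). The differences rested on rat 7: without it they were 0.51 for RT1-Ba, 0.41 for RT1-Da, 0.19 for RT1-Db1, 0.11 for RT1-Bb and 0.08 for Cd74. The effect at 8 weeks minus that at 2 weeks ran from −0.08 for Cd74 to 0.71 for RT1-Ba, with an adjusted p of 1.00 for each, so a difference between the times was not shown. Here limma called 0 of 5 members against a background of 0.0%, with 35 genes higher and 59 lower at an unadjusted p under 0.05.

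**Figure D4:**
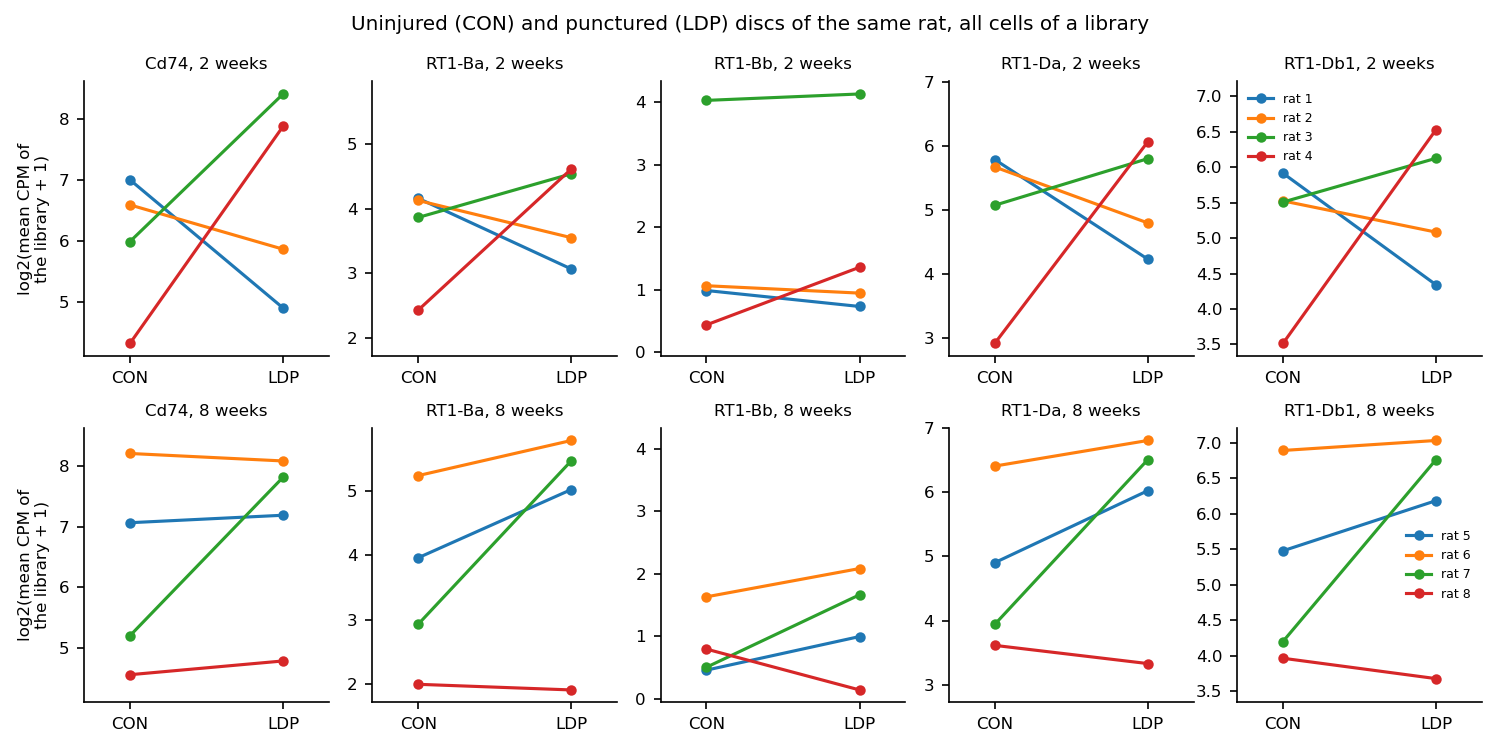
Level of 5 MHC class II genes over all cells of a library, as log2(mean CPM + 1), with a line joining the CON and LDP library of each rat, at 2 weeks (top) and 8 weeks (bottom). At 2 weeks the lines of rats 1 and 2 fall and those of rats 3 and 4 rise, and at 8 weeks the chains rise in rats 5, 6 and 7.

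The share of class II positive cells did not pass its test at either time. This test shuffled the libraries without the pairing within the rat. By the exact paired test p was 0.625 at 2 weeks and 0.75 at 8 weeks, where 0.125 is the smallest possible. At 2 weeks it was 1.06, 0.780, 0.720 and 0.121% of cells in CON rats 1 to 4 (mean 0.671 ± 0.396) and 0.173, 0.463, 1.71 and 2.16% in LDP (1.13 ± 0.960), a difference of 0.457 percentage points (two-sided exact permutation test over 70 splits, p = 0.400, higher in 2 of 4 rats). Without rat 4 it was −0.0725 points. At 8 weeks it was 1.499, 3.21, 0.322 and 0.297% in CON (1.33 ± 1.37) and 1.67, 2.21, 1.92 and 0.244% in LDP (1.51 ± 0.874), a difference of 0.179 points (exact permutation p = 0.743, higher in 2 of 4 rats). The difference turned to −0.165 points at all UMIs, −0.109 at 2000 UMIs, −0.506 by Cd74 alone and −0.294 without rat 7. With 4 libraries a group the smallest p this test can give is 0.0286.

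Within myeloid cells the level per cell can be compared without the number of myeloid cells. At 2 weeks the log2 differences ran from −0.12 for Cd74 to 0.05 for RT1-Da, with adjusted p from 0.971 to 0.996, and all 5 genes were higher in the punctured discs of rats 1 and 2 and lower in rats 3 and 4. LDP rats 3 and 4, like CON rat 1, were the libraries rich in neutrophil transcripts, and the part of these cells in the levels was not tested. The background was 0.0% called of 7472 genes, with 115 higher and 212 lower at an unadjusted p under 0.05 by limma.

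At 8 weeks Cd74 was at 2229, 6016, 2939.9 and 4325 CPM in the myeloid cells of CON rats 5 to 8 and at 7013, 8310.0 and 5992 CPM in those of LDP rats 5 to 7. LDP rat 8 had 19 myeloid cells, under the limit of 20, and was left out. All 5 genes were higher after puncture in 3 of 3 rats with both libraries, and the groups overlapped for each gene. In the pair that was left out all 5 ran the other way: Cd74 was at 3112 CPM in the 19 cells of LDP rat 8 against 4325 CPM in CON rat 8, and RT1-Da at 1781 against 2268 CPM. The log2 difference was 1.05 ± 0.39 for Cd74 (SE, a 2.07-fold difference, 95% interval 1.15 to 3.72-fold, limma adjusted p = 0.302). It was 0.98 ± 0.41 for RT1-Da (adjusted p = 0.354) and 0.91 ± 0.42 for RT1-Db1 (adjusted p = 0.393). RT1-Ba, at 0.85 ± 0.48, and RT1-Bb, at 1.22 ± 0.64, had adjusted p of 0.495 and 0.461. Thus 3 of 5 genes had an unadjusted p under 0.05 in the upward direction, against 2.69% of all genes, and 0 of 5 were called, against a background of 0.0268%. RT1-Db1 stood at the edge, with an unadjusted limma p of 0.049998. Cd74, RT1-Da and RT1-Db1 varied together across the myeloid libraries, so the 3 are not separate results. The median over the 5 was 0.98, and that over all 7472 genes was −0.35. Without rat 5 they were 0.75 for Cd74, 0.47 for RT1-Ba, 0.69 for RT1-Bb, 0.48 for RT1-Da and 0.60 for RT1-Db1. With a minimum of 10 cells, which brings rat 8 in, the log2 difference was 0.67 ± 0.36 for Cd74, 0.57 ± 0.41 for RT1-Ba, 0.32 ± 0.68 for RT1-Bb, 0.65 ± 0.37 for RT1-Da and 0.59 ± 0.37 for RT1-Db1 (SE, limma adjusted p from 0.436 to 0.872), and 0 of 5 had an unadjusted p under 0.05. The classes were drawn apart in CON and LDP, and in LDP the unnamed cells held 47.5 to 64.6% of RT1-Ba, so that these values describe the cells the authors named and not all class II rich cells. The myeloid marker list itself summed to 1768 to 8021 CPM in CON and 6094 to 8611 CPM in LDP.

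The share of positive myeloid cells did not pass its test at either time. This test too left out the pairing within the rat, and the paired results are given in the closing section. At 8 weeks it was 28.3, 55.3, 22.9 and 58.1% in CON rats 5 to 8 (41.1 ± 18.1) and 53.2, 70.6 and 58.2% in LDP rats 5 to 7 (60.6 ± 8.96), 19.5 points higher (exact permutation test over 35 splits, p = 0.229, smallest possible 0.0286, higher in 3 of 3 rats). In LDP rat 8, left out for its 19 cells, it was 52.6%, below the 58.1% of CON rat 8. At 2 weeks it was 47.1 ± 10.8% in CON and 48.0 ± 10.7% in LDP (n = 4 each, exact permutation p = 0.943). Among myeloid cells without a UMI of S100a8 or S100a9, a subset chosen after the values were seen, the share at 2 weeks was 50.9 ± 3.97% in CON and 56.0 ± 7.41% in LDP, higher in 4 of 4 rats (exact permutation p = 0.257), and at 8 weeks the difference was 21.9 points (exact permutation p = 0.114).

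In lymphoid cells at 8 weeks RT1-Ba, RT1-Da and RT1-Db1 were lower in the punctured discs of rats 6 and 7 and higher in rat 5, and Cd74 was higher only in rat 6. The log2 differences were −0.19 ± 0.30 for Cd74, −1.05 ± 0.72 for RT1-Ba, −0.92 ± 0.65 for RT1-Da and −0.74 ± 0.47 for RT1-Db1 (SE, adjusted p = 0.999 for each). They rested on single rats: without rat 5 they were −2.09 for RT1-Ba, −1.92 for RT1-Da and −1.35 for RT1-Db1, and without rat 7 −0.29, −0.18 and −0.04. The background was 0.0% called of 7169 genes by limma, with 76 higher and 95 lower at an unadjusted p under 0.05. At 2 weeks no rat had 20 lymphoid cells in both libraries and nothing was fitted. In disc cells only Cd74 passed the filter, with log2 differences of 0.41 ± 0.90 at 2 weeks and −0.07 ± 0.90 at 8 weeks (adjusted p = 0.841 and 0.968), and it was not called at either time. At 2 weeks it was 1.35 without rat 1 and 0.25 without rat 2, and Cd74 did not pass the filter without rat 3 or rat 4. At 8 weeks it was 0.15 without rat 5, −0.89 without rat 7 and −0.36 without rat 8, and Cd74 did not pass without rat 6. Of 6681 genes 0.18% were called at 2 weeks (0.135% higher and 0.0449% lower after puncture) and 0.464% at 8 weeks (0.225% higher and 0.239% lower). No member passed it in endothelial cells.

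RT1-Bb set 1 animal apart. In myeloid cells there were 93.5 RT1-Bb UMIs per 100 RT1-Ba UMIs in the uninjured discs of rat 3 and 67.0 in its punctured discs, whereas the other 13 libraries ran from 2.54 to 25.8. The uninjured library held 648 RT1-Bb and 693 RT1-Ba UMIs there, and the punctured one 1027 and 1532. Over whole libraries RT1-Bb was at 15.3 and 16.5 CPM in rat 3 and at 0.353 to 1.56 CPM in the other 6 libraries of 2 weeks. In disc cells RT1-Bb had a UMI at full depth in 1.26 and 1.98% of cells of rat 3 and in at most 0.152% of cells of any other library. RT1-Ba and RT1-Da in the myeloid cells of rat 3 lay within the range of the other libraries, and RT1-Db1 was highest of all in its uninjured discs (5529.6 CPM) and at 2351 CPM in its punctured ones. The lymphoid cells of LDP rat 3 stood apart in RT1-Db1, with a UMI in 3.96% of 2781 cells at full depth against 31.4% of 1406 in LDP rat 4, while Cd74 was found in 52.2 and 52.1%. RT1-Db1 made up 39.2% of the chain UMIs in these cells of rat 3 and 50.5 to 100% in the lymphoid cells of the other 10 libraries. RT1 genes are polymorphic and have near copies, Sprague-Dawley rats are outbred, and the reads were counted on a single reference genome. Counts split between alleles or copies are uncertain, and their part in the pattern of rat 3 was not tested.

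**Figure D5:**
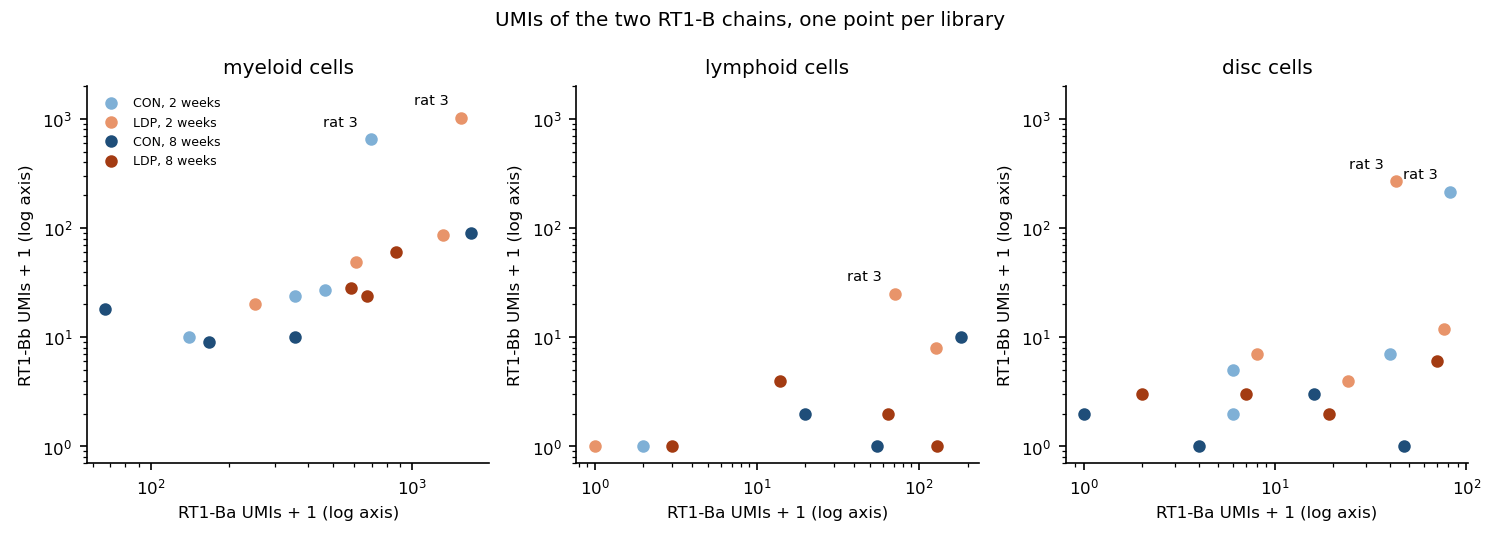
UMIs of RT1-Bb against UMIs of RT1-Ba, with 1 added, on log axes, 1 point per library, in myeloid, lymphoid and disc cells. Both libraries of rat 3 lie above the others in myeloid cells and in disc cells, and LDP rat 3 has the highest RT1-Bb count among lymphoid cells.

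Across the 54 class-by-library means (log2(mean CPM + 1), at least 20 cells each) the genes most like the mean of the 5 members among 9826 genes were Cybb (Pearson r = 0.97), a subunit of the phagocyte oxidase, Tnfaip8l2 (0.97), Spi1 (0.96), the myeloid and B cell transcription factor PU.1, Lpxn (0.96) and Ncf4 (0.96). The means share libraries and depth, so the values are descriptions. Across the 15 myeloid libraries r was 0.95 for Cd74 with RT1-Da, 0.93 with RT1-Db1, 0.93 with RT1-Ba and 0.47 with RT1-Bb, with no p because the libraries share rats.

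Other genes of the pathway were taken from lists by role, and limma called no gene of any list in whole libraries or in classes, with all libraries of at least 20 cells in. Of 4 other class II genes, RT1-DOa was at 13.1 CPM and RT1-DOb at 6.50 CPM in myeloid cells. RT1-DOb was not listed for CON at 2 weeks, and its mean leaves those libraries out. Only RT1-DOa was tested in myeloid cells at 8 weeks, with a log2 difference of −1.56 ± 1.18 (SE, limma adjusted p = 0.632). Among enzymes that cut the invariant chain or antigens, the lysosomal proteases Ctsb, Ctsl and Ctsz averaged 2085, 2299 and 594 CPM in myeloid cells. In myeloid cells at 8 weeks 4 of 8 tested enzymes of this list had an unadjusted p under 0.05 upward, against 2.69% of all genes, and the list's median was 0.81 against −0.35 over all genes. Whether these enzymes vary together was not tested, so such counts may not be of separate results. The log2 difference was 1.21 ± 0.26 for Ctsz (adjusted p = 0.101), 1.09 ± 0.25 for Ctsb (adjusted p = 0.112) and 1.19 ± 0.32 for Ctsl (adjusted p = 0.181). With a minimum of 10 cells, which brings rat 8 in, 5 of 8 had an unadjusted p under 0.05 upward, as had 248 of all 7577 genes. Of these limma called 3, against a background of 0.541% in either direction (41 genes): Ctsb (1.16 ± 0.21, adjusted p = 0.0380), Ctsz (1.11 ± 0.22, adjusted p = 0.0498) and Lgmn, the asparagine endopeptidase (1.10 ± 0.21, adjusted p = 0.0437). The enzymes of the list that did not reach an unadjusted p under 0.05 were Ctss, Ctsh and Ifi30. They were at 0.38 ± 0.41, 0.45 ± 0.25 and 0.17 ± 0.28 (limma adjusted p = 0.735, 0.453 and 0.841). In lymphoid cells at 8 weeks the log2 difference was −1.03 ± 0.43 for Ctsb, −0.69 ± 0.35 for Ctsl and 0.44 ± 0.33 for Ctsz (adjusted p = 0.999 for each), and Ctsb was at −1.39 without rat 7 (adjusted p = 0.0464), a fit in which 1.97% of genes were called. Nfyb, Nfyc and Creb1, parts of the complex that binds class II promoters, averaged 22.0, 36.2 and 31.1 CPM in myeloid cells and 50.2, 74.8 and 70.9 CPM in lymphoid cells, and the median of the 4 tested genes of their list at 8 weeks in myeloid cells was −0.77. Of the costimulatory molecules Cd86 averaged 51.6 CPM in myeloid and 3.07 CPM in lymphoid cells, Cd40 26.6 and 65.7 CPM, and Cd80 15.1 and 4.59 CPM. The means of Cd86 leave out CON at 2 weeks, for which it was not listed, and it was not fitted. Of the interferon gamma list, Ifngr1 averaged 314, Jak1 200.2 and Cxcl10 192 CPM in myeloid cells, and at 8 weeks 0 of 10 tested had an unadjusted p under 0.05 upward and 3 downward, with a median of −0.83. Over all 7472 genes of that fit 201 were upward and 748 downward at that level, and the median was −0.35. The MHC class I genes, which most nucleated cells use, were spread differently: B2m averaged 4567 CPM in myeloid, 4252 in lymphoid, 6617 in endothelial and 584 CPM in disc cells, and RT1-A2 848, 566, 467 and 120.0 CPM. Of 12 class I genes tested in myeloid cells at 8 weeks, 0 had an unadjusted p under 0.05 upward and 1 downward, with a median of −0.27 against the same −0.35. With a minimum of 10 cells, which brings rat 8 in, the medians in myeloid cells at 8 weeks were −0.28 for the 5 promoter-binding genes then tested, −0.64 for the interferon gamma list and −0.092 for the class I list, against −0.30 over all 7577 genes. In the same fit the median was 0.98 for the enzymes and −0.93 for the 2 costimulatory genes tested, and RT1-DOa was at −1.17.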

How the data were processed

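Single cells of 16 rat disc libraries were read by 10x Genomics 3′ v3.1 chemistry. The authors processed reads in Partek Flow (build rn6 per the submitters' notes), filtered cells on genes, UMIs and mitochondrial share, and named K-means clusters in each group. The aligner, and any treatment of doublets or free RNA, is not given in the sources used here, and doublets were not called here. The deposited gene values are log2(CPM + 1) per cell. The deposited cell totals are expected counts, not whole in most cells. The number of expressed genes per cell is a deposited count, and mitochondrial and ribosomal shares are a deposited percent; neither entered a test.

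Counts were recovered from value and total. For the members, 100% of values above 0 were whole within 0.02. Mean CPM per library and class was fitted by limma (R 4.3.3, limma 3.58.1, trend, pseudocount 1 CPM, Benjamini-Hochberg over all genes tested) with an LDP effect at each time and rat as block. Genes listed in all libraries of a fit were kept at a mean of at least 1 CPM in 4 libraries (10 CPM in class fits, which used libraries with 20 cells or more). edgeR 4.0.16 and DESeq2 1.42.0 on summed counts were alternatives, as were other pseudocounts, no filter, no block, 10 cells, other thinning and each rat left out. CON and LDP libraries with 1 number come from the same animal, on which the pairing rests; after removal of group means they correlated at −0.586 to 0.277 at 2 weeks and −0.114 to 0.611 at 8 weeks.

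The genes, lists and tests were chosen with earlier results of these data known. Named list genes are those called or the 3 highest in myeloid cells, and the 5 genes most like the members are those with the highest correlation. Each class was checked by its markers. Replicates are separate rats. Shares were tested with scipy 1.17.1.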

Additional observations from a re-analysis of the deposited data

Results flagged for a closer look

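Among 71 groups of 4 libraries examined, 13 values stood apart from the other 3 by Dixon's test at the 95% level. For independent values of a normal distribution chance alone gives this in about 1 of 20 groups. Here the values were raw CPM, percentages and ratios, some near 0, and the groups share cells, so the rate by chance is not known. Rat 3 supplied 7 of the 13, all for RT1-Bb. Over whole libraries RT1-Bb was at 15.3 CPM in its uninjured discs (the others 0.353 to 1.09) and 16.5 CPM in its punctured discs (0.659 to 1.56). In myeloid cells it was at 1738 CPM in the uninjured discs (37.9 to 164). In disc cells it was at 5.03 CPM in the uninjured (0.0315 to 0.152) and 4.09 CPM in the punctured discs (0.0713 to 0.391). Per 100 RT1-Ba UMIs in myeloid cells there were 93.5 of RT1-Bb in the uninjured (5.62 to 6.50) and 67.0 in the punctured discs (6.51 to 7.88).

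The other 6 were spread over rats 5, 6 and 8. RT1-Ba in myeloid cells was at 1570.3 CPM in the uninjured discs of rat 6 (518 to 650.1). Cd74 in lymphoid cells was at 428 CPM in the punctured discs of rat 8 (1017 to 1066), where the B precursor markers summed to 3467 CPM, against 1131 to 2741 CPM in the lymphoid cells of the other 10 libraries; their part in the level was not tested. RT1-Bb in lymphoid cells was at 5.81 CPM in the punctured discs of rat 6 (0 to 0.866), with 23.1 UMIs per 100 of RT1-Ba (0 to 1.56), from 3 UMIs. RT1-Bb in disc cells was at 0.168 CPM in the uninjured discs of rat 5 (0 to 0.0136). RT1-Bb per 100 RT1-Ba in myeloid cells was 25.8 in the uninjured discs of rat 8 (2.54 to 5.36). None of the causes was tested.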

How the results depend on the processing

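No member had an adjusted p under 0.05 in any of 148 member results under other settings or 141 without 1 rat. Few genes of any kind were called: 0.0 to 0.464% in the main fits. The share was 0.541% in myeloid cells at 8 weeks with at least 10 cells and 1.97% in lymphoid cells without rat 7. The lack of calls thus says little about the members. The main fits tested 12199 genes in whole libraries, 7472 in myeloid, 7169 in lymphoid and 6681 in disc cells. Calls over all genes moved more. In whole libraries DESeq2 called 140 genes at 2 weeks, and at 8 weeks, where limma called 1, no block gave 3, edgeR 2 and DESeq2 209. In myeloid cells at 8 weeks, where 2 were called, no block gave 11, a pseudocount of 10 CPM 71 and at least 10 cells 41. In lymphoid cells a pseudocount of 10 CPM gave 2. In disc cells at 2 weeks (12 called) no block gave 0, no filter 24 and a pseudocount of 10 CPM 2, and at 8 weeks (31 called) that pseudocount gave 18. The Cd74 effect at 8 minus 2 weeks turned to 0.32 by edgeR and 0.33 by DESeq2. The 8 week difference in the share of positive cells turned to −0.165 points at all UMIs, −0.109 at 2000 UMIs and −0.506 by Cd74 alone, and the 2 week myeloid share to −0.333 points at all UMIs. With the replicate block the shares gave exact paired p of 0.625 and 0.75 over all cells at 2 and 8 weeks and 1 and 0.25 in myeloid cells, where the smallest possible were 0.125 with 4 pairs and 0.25 with 3, so none could pass 0.05. Of the positive cells myeloid cells made up 46.4% and lymphoid cells 38.0% at 1000 UMIs, 51.7 and 34.6% at 2000 UMIs, 32.7 and 47.6% at all UMIs and 18.7 and 63.1% by Cd74 alone. Causes were not tested.

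Without 1 rat at a time the calls ran from 0 to 1 in whole libraries at each time, 0 to 5 and 1 to 3 in myeloid cells at 2 and 8 weeks, 0 to 135 in lymphoid cells (135 without rat 7), 1 to 5 in endothelial cells, and 0 to 1 and 0 to 0 in disc cells. At 2 weeks in whole libraries the log2 difference ran from −0.14 to 1.76 for Cd74, −0.33 to 0.76 for RT1-Ba, −0.090 to 0.30 for RT1-Bb, −0.57 to 1.00 for RT1-Da and −0.47 to 1.06 for RT1-Db1, each below 0 without rat 4. In myeloid cells it ran from −0.53 to 0.24, −0.62 to 0.32, −0.75 to 0.51, −0.33 to 0.45 and −0.42 to 0.40 in that order. The effect at 8 minus 2 weeks ran from −1.05 to 0.84 for Cd74, −0.0505 to 0.55 for RT1-Bb, −0.047 to 1.52 for RT1-Da and −0.28 to 1.25 for RT1-Db1. Cd74 ran from −0.44 to 0.14 in lymphoid cells and −0.89 to 0.15 in disc cells at 8 weeks (3 refits), and 0.25 to 1.35 in disc cells at 2 weeks (2 refits), since it did not pass the filter in the others. Share differences ran from −0.0725 to 0.905 and −0.294 to 0.571 points over all cells, and −3.90 to 6.46 and 14.7 to 25.2 points in myeloid cells. In myeloid cells at 8 weeks Cd74 ran from 0.75 to 1.34, RT1-Ba from 0.47 to 1.11, RT1-Bb from 0.69 to 1.52, RT1-Da from 0.48 to 1.42 and RT1-Db1 from 0.60 to 1.25. These refits could not turn a direction, because each gene was higher in LDP in all 3 rats with both libraries. The pair left out for its few cells ran the other way. In whole libraries at 8 weeks none turned: Cd74 ran from 0.08 to 0.98, RT1-Ba from 0.51 to 1.38, RT1-Bb from 0.11 to 0.72, RT1-Da from 0.41 to 1.36 and RT1-Db1 from 0.19 to 1.14.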
